A study of Saccharomyces cerevisiae with 11 samples.

Results

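The genes described here are ADE1, ADE2, ADE3, ADE4, ADE6, ADE8, ADE12, ADE13, ADE17 and AAH1 of Saccharomyces cerevisiae, which serve the synthesis and recycling of purines. They were chosen by name, as the genes whose symbol alone is annotated to a probe set, with the brightest probe set used for each gene. They and the lists of genes from neighbouring pathways were chosen with earlier results of these data known. Their counts beside the shares of all genes are therefore descriptions and not tests. They make up 10 of the 5577 genes tested. All 10 members passed the filter on low values, and each lay above the signal floor of 12 on all 11 arrays. Each had a single probe set of its own. ADE6 was also named on a probe set annotated to 4 genes, which was not used.

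RNA of the strain IMK313 was hybridised to 11 one-colour Affymetrix arrays. IMK313 is a rim15 deletion mutant of the prototrophic laboratory strain CEN.PK113-7D. The kinase it lacks, Rim15, relays nutrient signals at the entry of yeast into rest. All groups carried the deletion, and all were grown without oxygen at a dilution rate of 0.025 per h on synthetic medium with 50 g of glucose per l, the limiting nutrient. In the chemostat group (3 cultures, the start of the time course) cells leave with the outflow. In the retentostat groups (days 2, 9, 16 and 20, with 2 cultures on each day) a filter in the outflow holds the cells back, less and less glucose reaches each cell, and division slows. The labels number the retentostat arrays 1 and 2 on each of the 4 days. Arrays of the same number were taken as the same culture, called culture 1 and culture 2 here. The study asks how the loss of RIM15 acts under severe calorie restriction. Wild-type cultures were not analysed here, each comparison is between time points of the mutant, and the sources used here do not say whether the mutant is 1 clone.

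Yeast builds purines on phosphoribosyl pyrophosphate (PRPP) in a chain of enzyme steps that ends in inosine monophosphate (IMP), from which separate branches lead to AMP and GMP. The genes of this route are known to be switched on together by the transcription factors Bas1 and Pho2 when adenine is scarce. Several steps use glycine or one-carbon units carried by folate, so the route is tied to the glycine and one-carbon genes. A separate salvage route recycles bases and takes them up from the medium. Purine nucleotides feed RNA and DNA synthesis, and demand for them is known to be high in dividing cells.

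The trimmed means of the arrays lay within 0.677% of each other, as after scaling to a common value, and the median signal ran from 85.3 to 122. On the 3 culture 2 arrays of days 9, 16 and 20, the control probe sets for actin gave a 3'/5' signal ratio of 27.0 to 217, against 0.966 to 2.03 on the other 8 arrays. Results on those days are therefore also given without these 3 arrays, which leaves 1 array for each of these days, assumed to vary like the others. The RIM15 probe set gave 0.4 to 13.9 and lay at or under the floor on 10 of the 11 arrays. With arrays on a common mean a signal is a share of the RNA on the array, so less of a transcript per cell and fewer cells that hold it cannot be told apart. The position of the RIM15 probe set in the gene is not known here, so the low signal is a check on the labels only for a probe set inside the deletion.

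**Figure D1:**
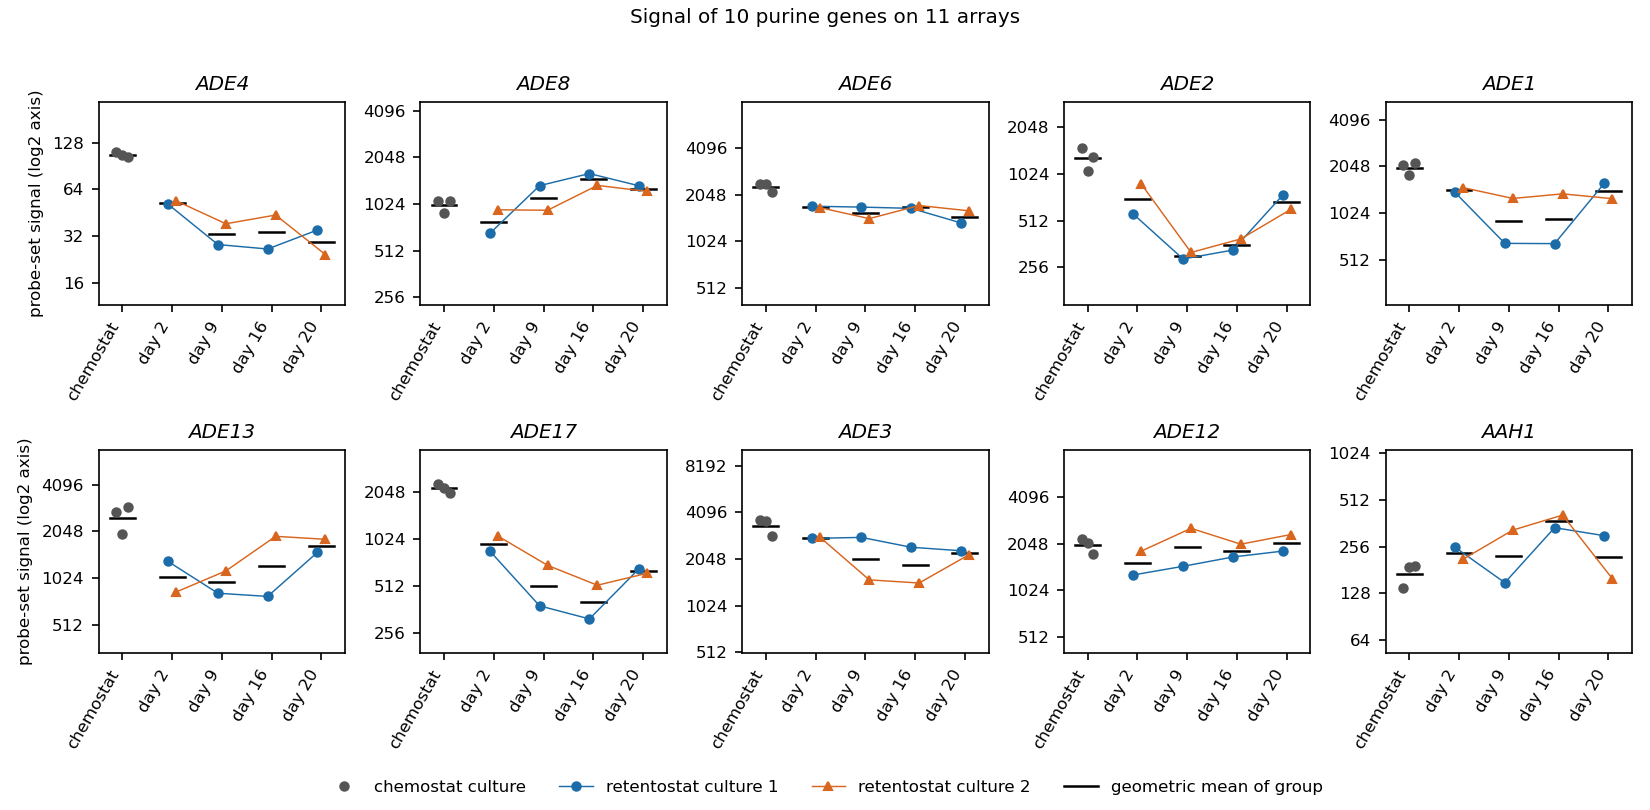
Probe-set signal of the 10 purine genes on a log2 axis, with 1 panel per gene. Grey points are the 3 chemostat cultures, blue circles and orange triangles the arrays of retentostat cultures 1 and 2, and black bars the geometric mean of each group. ADE4, ADE2 and ADE17 lie below the chemostat on every retentostat array, whereas arrays of ADE12 and ADE8 lie on both sides of it.

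Some of the purine genes fell over the time course and others passed the threshold on no day. ADE4, ADE2 and ADE17, which act at the entry, in the middle and at the end of the route to IMP, fell on days 9, 16 and 20. ADE13 fell on day 9. ADE8, ADE6, ADE1, ADE12, ADE3 and AAH1 passed the threshold on no day. The threshold was an adjusted p of 0.05 in limma, with Benjamini-Hochberg adjustment over all genes. A moderated F test over the 5 sampling points called 3 of the 10 members, ADE4, ADE2 and ADE17 (limma adjusted p = 0.0101, 0.00652 and 0.00646), against 11.4% of all genes tested. Without chemostat array 1, 2 or 3 the F test called 2 of the 10, and without either array of day 16 it called 4.

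ADE4 (YMR300C) encodes the amidotransferase that commits PRPP to purine synthesis. Its signal was 111, 106 and 104 in the 3 chemostat cultures and 51.3 and 54.0 on day 2. In cultures 1 and 2 it was 28.2 and 38.4 on day 9, 26.4 and 43.7 on day 16, and 35.0 and 24.3 on day 20. Every retentostat array lay below every chemostat array, and every array of days 9, 16 and 20 lay below those of day 2. The log2 differences of days 9, 16 and 20 from the chemostat were -1.70 ± 0.28 (SE), -1.65 ± 0.28 and -1.87 ± 0.28 (limma adjusted p = 0.00619, 0.00544 and 0.00426), and the day 20 level was 3.66 times lower. Its day 20 call ended without the culture 2 array of that day (limma adjusted p = 0.0726), while it held without the 3 arrays of high actin ratio (limma adjusted p = 0.0239).

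ADE2 (YOR128C) encodes the AIR carboxylase of the middle of the route, the enzyme whose loss turns yeast colonies red. The chemostat cultures gave 1503, 1072 and 1324, and cultures 1 and 2 gave 564 and 880 on day 2, 289 and 319 on day 9, 330 and 390 on day 16, and 746 and 603 on day 20. All retentostat arrays lay below the chemostat, with the lowest values in both cultures on day 9 and higher ones again on day 20. The log2 difference was -2.08 ± 0.27 (SE) on day 9 (4.24 times lower) and -1.84 ± 0.27 on day 16 (limma adjusted p = 0.00229 and 0.00282). On day 20 it was -0.94 ± 0.27 (limma adjusted p = 0.0462), and this call was lost with the replicate number as a block (limma adjusted p = 0.0969) and without the 3 arrays of high actin ratio (limma adjusted p = 0.190). The call was also lost under quantile scaling and without any 1 of the chemostat or day 20 arrays. The replicate block takes chemostat array 3 out of the difference, so it overlaps with leaving out that array.

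ADE17 (YMR120C) encodes an isozyme of the last enzyme of the route, which closes the ring to IMP. Its chemostat signals were 2310, 2197 and 2046. Cultures 1 and 2 gave 859 and 1074 on day 2, 380 and 694 on day 9, 313 and 517 on day 16, and 662 and 617 on day 20. No retentostat array overlapped the chemostat, and the lowest values came on day 16. With -2.44 ± 0.31 (SE) on the log2 scale, or 5.42 times lower, the day 16 difference of ADE17 had the largest size among the 10 members in the comparisons with the chemostat (limma adjusted p = 0.00176). Days 9 and 20 gave -2.09 ± 0.31 and -1.77 ± 0.31 (limma adjusted p = 0.00413 and 0.00815). The day 20 call was lost without either array of that day (limma adjusted p = 0.0927 without culture 2).

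ADE13 (YLR359W) encodes adenylosuccinate lyase, which works both on the route to IMP and on the branch to AMP. It gave 2743, 1964 and 2943 in the chemostat. Cultures 1 and 2 gave 1308 and 831 on day 2, 816 and 1137 on day 9, 779 and 1901 on day 16, and 1499 and 1819 on day 20. All retentostat arrays lay below the chemostat, but on day 16 the cultures differed 2.44-fold. The day 16 difference was -1.05 ± 0.40 (SE, limma adjusted p = 0.0870). It was -1.41 under median scaling, where it passed (limma adjusted p = 0.0336), and -0.78 under quantile scaling (limma adjusted p = 0.249). Without the culture 2 array of day 16 it was -1.69. The day 9 difference was -1.38 ± 0.40 (SE, limma adjusted p = 0.0446). That call held under 10 of the 23 alternative settings. Among others it was lost with the replicate block (limma adjusted p = 0.105), under quantile scaling (limma adjusted p = 0.0981), without the 3 arrays of high actin ratio (limma adjusted p = 0.0510) and without any 1 of the 3 chemostat arrays.

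ADE1 (YAR015W) encodes SAICAR synthetase, the step after ADE2. Its signals were 2081, 1796 and 2145 in the chemostat and 1392 and 1497 on day 2. On later days the cultures parted. Culture 1 gave 654 on day 9, 651 on day 16 and 1597 on day 20, and culture 2 gave 1273, 1364 and 1269. The log2 difference was -1.13 ± 0.37 (SE) on day 9 and -1.09 ± 0.37 on day 16 (limma adjusted p = 0.0657 and 0.0626). Without the 3 culture 2 arrays of high actin ratio it was -1.61 and -1.62, and both values passed (limma adjusted p = 0.0242 and 0.0210). Culture 2 was close to its day 2 level on all 3 days, while culture 1 was lower on days 9 and 16 than on days 2 and 20, and the part of the actin ratio in this split was not tested.

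The remaining enzymes of the route to IMP passed on no day. ADE6 (YGR061C), the FGAM synthetase, gave 2392, 2380 and 2129 in the chemostat and 1346 to 1741 on the 8 retentostat arrays. These ranges do not overlap, yet the log2 differences were small, from -0.43 ± 0.21 (SE) on day 2 to -0.64 ± 0.21 on day 20, and none passed (limma adjusted p = 0.0675 on day 20). Under median scaling ADE6 passed on days 9, 16 and 20 (limma adjusted p = 0.0481, 0.0403 and 0.0163). It also passed with no filter on dim genes on day 9, and on day 20 under 8 other alternatives, such as a floor of 32 and leaving out any 1 array of day 9 or 16. ADE8 (YDR408C), the GAR transformylase, gave 1068, 890 and 1062 in the chemostat and was higher than this on both arrays of days 16 and 20. It was 660 and 938 on day 2, 1342 and 931 on day 9, 1606 and 1347 on day 16 and 1339 and 1232 on day 20. Its log2 difference on day 20 was 0.36 ± 0.26, the same to 2 decimals as the median of all genes, and under median scaling it was -0.07.

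The members outside the route to IMP passed on no day. ADE12 (YNL220W), the adenylosuccinate synthetase that opens the AMP branch, gave 1749 to 2205 in the chemostat and 1287 to 2572 in the retentostat. The groups overlapped on every day, with log2 differences from -0.38 ± 0.30 (SE) on day 2 to 0.05 ± 0.30 on day 20, the latter -0.37 under median scaling. ADE3 (YGR204W), the folate enzyme that supplies one-carbon units, gave 2862 to 3637 in the chemostat. On days 9 and 16 culture 1 gave 2822 and 2438 and culture 2 gave 1501 and 1433, so that here the arrays of high actin ratio were the lower ones, the reverse of ADE1. By day 20 the cultures were close, at 2314 and 2179. The log2 differences of ADE3 on days 9, 16 and 20 were -0.70 ± 0.32 (SE), -0.84 ± 0.32 and -0.57 ± 0.32, of which day 16 had the lowest limma adjusted p, 0.0910. The day 16 difference passed without either day 9 array. It was -1.22 without the culture 1 array of day 16, -0.51 under quantile scaling and -0.45 without the 3 arrays of high actin ratio. The day 20 difference passed with only the arrays of both groups in the fit (limma adjusted p = 0.0479).

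AAH1 (YNL141W) encodes adenine deaminase, which turns adenine into hypoxanthine in salvage and is known in yeast for being shut down on entry into the resting state. It gave 138, 190 and 191 in the chemostat and 254 and 213 on day 2. Cultures 1 and 2 gave 150 and 328 on day 9, 340 and 409 on day 16, and 301 and 159 on day 20. Both day 16 arrays were above the chemostat, at 1.12 ± 0.38 on the log2 scale (SE, limma adjusted p = 0.0648). This difference passed when either day 9 array was left out, which changes only the shared spread. It was 0.76 under both quantile and median scaling (limma adjusted p = 0.198 and 0.197) and 0.99 without the 3 arrays of high actin ratio. On days 9 and 20 the groups overlapped. The day 9 difference of 0.37 ± 0.38 was -0.19 without the 3 arrays of high actin ratio. On day 20 the difference was 0.36 ± 0.38, and -0.07 under both quantile and median scaling. Without the 3 arrays of high actin ratio the day 20 difference was 0.82.

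**Figure D2:**
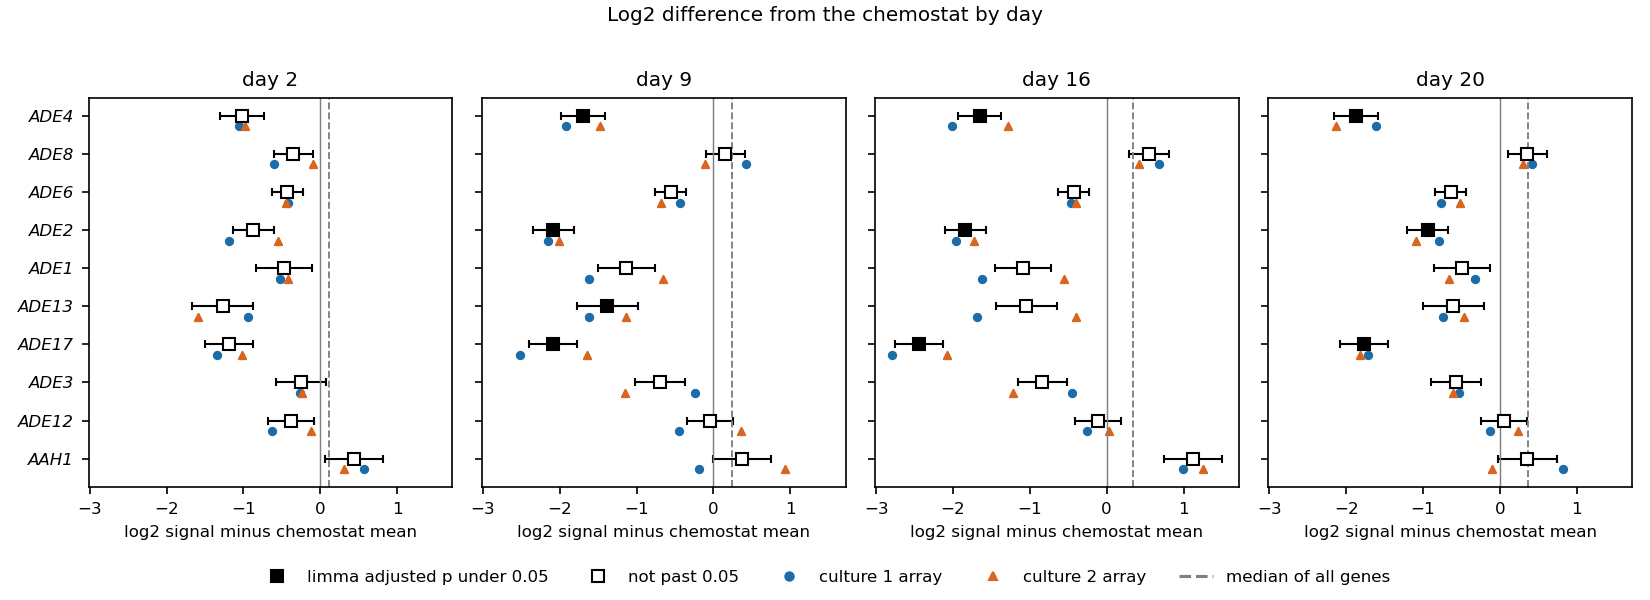
Log2 signal minus the chemostat mean for each of the 10 genes on days 2, 9, 16 and 20. Squares are group means with the limma standard error (filled where the adjusted p was under 0.05), blue circles and orange triangles are the arrays of cultures 1 and 2, and the dashed line is the median of all genes. The filled squares are ADE4, ADE2 and ADE17 on days 9, 16 and 20 and ADE13 on day 9.

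On day 2 no member passed. On that day 9 of the 10 genes had a log2 difference below 0, of which those of ADE8 and ADE12 came with overlapping groups and that of ADE3 was within its SE, and the median of the 10 was -0.45, against 0.11 for all genes. In 7 of them (ADE4, ADE6, ADE2, ADE1, ADE13, ADE17 and ADE3) both day 2 arrays lay below all 3 chemostat arrays, which was so for 10.6% of all genes. In AAH1 both lay above, as for 24.5% of all genes. No member was called by limma (0% of all genes were called lower and 0.0179% higher), but 4 had an unadjusted p under 0.05, all lower, against 2.37% of genes. These were ADE4 (-1.02 ± 0.28, SE), ADE2 (-0.87 ± 0.27), ADE13 (-1.27 ± 0.40) and ADE17 (-1.18 ± 0.31).

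By day 9, 4 of the 10 members were called lower and none higher, against 3.68% of all genes called lower and 11.4% higher. Since the members were chosen with earlier results of these data known, such counts only describe them. The same 7 genes as on day 2 did not overlap with the chemostat, against 13.8% of all genes, no member lay wholly above it, against 33.7%, and the median of the 10 was -0.92 against 0.25. Without the 3 arrays of high actin ratio the count was again 4, with ADE1 in place of ADE13, and with the replicate block it was 3.

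On day 16, 3 members were called lower and none higher, against 4.32% and 16.6% of genes, with a median of -0.94 against 0.35. The same 7 genes lay wholly below the chemostat (12.4% of all genes), and ADE8 and AAH1 lay wholly above it (41.1%). Without the 3 arrays of high actin ratio 4 were called, and without the culture 2 array of day 16 alone 5. Leaving out either day 9 array, which enters through the shared spread, gave 6 calls, 1 of them AAH1 as higher. On day 20, 3 were called lower and none higher, against 3.01% and 10.5%, with a median of -0.59 against 0.36. Again the same 7 genes lay wholly below the chemostat (14.7% of all genes), and ADE8 alone lay wholly above it (50.3%). The number called fell to 1 without the culture 1 array of day 20 and to 0 without that of culture 2. It was 2 without any 1 chemostat array, 2 with the replicate block and 2 without the 3 arrays of high actin ratio.

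Against the chemostat the median gene stood 0.11 higher (log2) on day 2 and 0.36 higher on day 20 under this scaling, and 0.02 and 0.07 higher under quantile scaling. Relative to the median gene, 9 members lay lower on days 2 and 9 and 8 on day 16. On day 20 ADE8 and AAH1 stood at 0.36, like the median gene, and the other members lay below it.

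Within the retentostat no member passed in any comparison between days. From day 2 to day 9, ADE4, ADE2, ADE1 and ADE17 were lower without overlap, as were 11.5% of all genes. ADE2 differed most, by -1.21 ± 0.29 (SE, limma adjusted p = 0.156, unadjusted 0.00219), and limma called 0.161% of all genes. ADE2 and ADE17 had an unadjusted p under 0.05, as did 14.6% of all genes. From day 9 to day 16 limma called 0% of genes, 3.41% had an unadjusted p under 0.05, none of them a member, and the 10 members ran from -0.35 to 0.75.

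From day 16 to day 20, when ADE2 was higher in both cultures, its log2 difference was 0.90 ± 0.29 (SE, limma adjusted p = 1, unadjusted 0.0121). ADE17 differed by 0.67 ± 0.34 (limma unadjusted p = 0.0803), again without overlap, as were 10.2% of all genes. ADE8, ADE6 and AAH1 were lower without overlap, as were 14.7%. In this comparison limma called 0% of genes, and 2.71% had an unadjusted p under 0.05. Between days 2 and 20 ADE4 differed by -0.85 ± 0.31 (SE) and ADE8 by 0.71 ± 0.28 (limma adjusted p = 0.269 and 0.305), in a comparison where limma called 0.592% of genes and 13.6% had an unadjusted p under 0.05, while ADE2 and ADE1 were near their day 2 level, at -0.07 and -0.02. Of the 10 members ADE4 had the lowest day 20 level relative to day 2.

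The members also differed in how closely they followed each other over the 11 arrays, which share cultures and scaling, so the correlations are descriptions. Among the 45 pairs Pearson's r ran from -0.73 (ADE3 with AAH1) to 0.94 (ADE4 with ADE17), with a median of 0.23. With the mean of the other 9, r was 0.92 for ADE17, 0.89 for ADE2, 0.89 for ADE4 and 0.87 for ADE1. It was 0.76 for ADE13, 0.72 for ADE6, 0.41 for ADE3 and 0.21 for ADE12. Only ADE8, at -0.44, and AAH1, at -0.47, ran opposite to the mean of the others.

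Of 4835 other genes with a mean signal of at least 50, the one most like the mean of the members was ALD6 (YPL061W), a cytosolic acetaldehyde dehydrogenase, with r = 0.98 over the 11 arrays. Its chemostat mean signal was 2788, and the means of days 2, 9, 16 and 20 were 849, 356, 439 and 543. Next came the seripauperin PAU23 (YLR037C), whose signal may be shared with near-identical relatives, with r = 0.96, and the cell-wall mannoprotein DAN4 (YJR151C), with r = 0.95. MET22 (YOL064C), a phosphatase of sulfur metabolism, had r = 0.95, and PDR12 (YPL058C), a weak-acid exporter, had r = 0.94. Without the 3 arrays of high actin ratio the same 5 genes ranked 1, 3, 14, 18 and 28.

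ADE16 (YLR028C) encodes the other isozyme of the last step, and it passed the threshold on no day. Its signal was 857, 946 and 709 in the chemostat. Cultures 1 and 2 gave 1152 and 596 on day 2, 730 and 528 on day 9, 836 and 317 on day 16, and 714 and 529 on day 20. Culture 1 lay within or above the chemostat range on every day, and culture 2 lay below it on every day. The day 20 log2 difference was -0.44 ± 0.43 (SE, limma adjusted p = 0.510). The log2 ratio of ADE17 to ADE16 signal was 1.39 ± 0.16 (SD, n = 3) in the chemostat. Averaged over days, it was -0.72 in culture 1 and 0.54 in culture 2, lower by 1.48 on average (exact permutation test over cultures, two-sided p = 0.1, the smallest p that 3 against 2 cultures allow). The chemostat values are single arrays and the retentostat values are means over the 4 days, so the units are unlike. ADE17 was also chosen with earlier results of these data known, so this p is a description. Changes of the ADE17 to ADE16 ratio show unequal change of both signals, whereas its level does not compare the isozymes, since probe sets differ in brightness. Without the 3 arrays of high actin ratio the retentostat minus chemostat value was -1.33, and the part of the actin ratio in it was not tested. ADE5,7, whose product covers another pair of steps, was not analysed here.

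**Figure D3:**
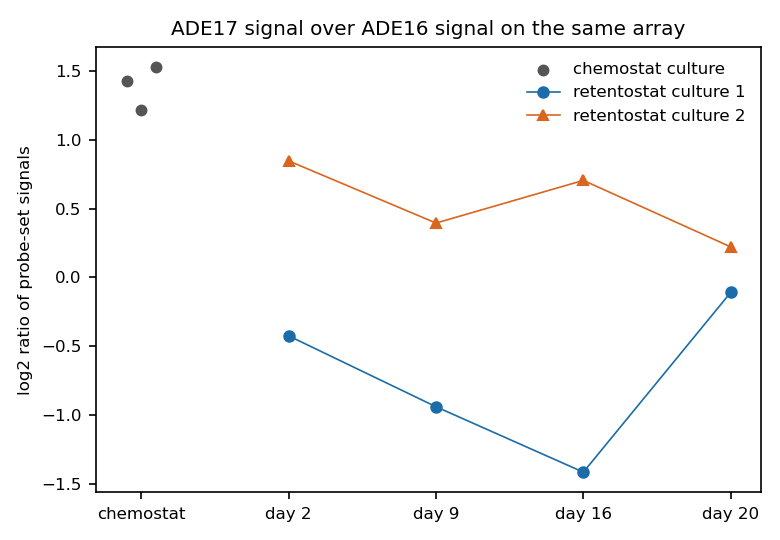
Log2 ratio of the ADE17 signal to the ADE16 signal on each array, with grey points for the 3 chemostat cultures and lines for retentostat cultures 1 and 2. All 8 retentostat arrays lie below the chemostat range of 1.21 to 1.53, culture 1 further than culture 2.

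In the GMP branch (IMD2, IMD3, IMD4, GUA1 and GUK1) and among the adenylate interconversion genes (ADK1, ADK2, AMD1, ADO1, ISN1 and YNK1) none of the 5 and 6 genes passed against the chemostat on any day, where 3.01% to 4.32% of all genes were called lower and 10.5% to 16.6% higher on days 9, 16 and 20. Their medians on day 20 were -0.08 and 0.16, against 0.36 for all genes. Without the 3 arrays of high actin ratio, 2 GMP genes on day 9 and 1 on day 16 were called lower, and with the replicate block 1 adenylate gene was called lower on day 16. Of 5 PRPP synthase genes, which make the starting material, PRS2 (YER099C) alone passed, with a log2 difference of 0.91 ± 0.23 (SE) on day 16 (limma adjusted p = 0.0231). This is 1 gene of 5, where 16.6% of all genes were called higher. That call was lost without the 3 arrays (limma adjusted p = 0.0674) and with the replicate block (limma adjusted p = 0.0501).

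In purine salvage and uptake, 1 of 9 genes was called higher on days 16 and 20, a share near the 16.6% and 10.5% of all genes. It was FCY21 (YER060W), a relative of the purine-cytosine permease FCY2. Its signal was 3.1 to 9.4 in the chemostat, under the floor, and 40.4 and 55.0 on day 20, at least 3.93-fold higher when counted from the floor. It passed the filter on low values only through the later retentostat arrays, so its call is not independent of that filter. The list had a median log2 difference of 0.45 on day 20, close to the 0.36 of all genes.

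Among the regulators, BAS1 had signals of 130 to 145 in the chemostat and 65.0 to 142 in the retentostat, with -0.50 ± 0.29 (SE) on the log2 scale on day 20 (limma adjusted p = 0.264). Without the 3 arrays it was called lower on day 9 (limma adjusted p = 0.0385). GCN4, the activator of amino acid synthesis, gave 5896 to 7718 in the chemostat and 5332 to 8779 later, and did not pass. PHO2 (YDL106C) lay under the floor in the chemostat, at 7.0 to 9.1, and gave 26.9 and 27.5 on day 20, at least 2.27-fold higher. It too passed the filter only through retentostat arrays, so its calls as higher on days 9, 16 and 20 are not independent of that filter. All 3 calls were lost without the 3 arrays (limma adjusted p = 0.0509, 0.101 and 0.0871).

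Of 9 genes that supply glycine and one-carbon units, 3, 4 and 4 fell on days 9, 16 and 20, where 3.68%, 4.32% and 3.01% of all genes did so. None rose, against 11.4%, 16.6% and 10.5%. When the 3 arrays of high actin ratio were left out, 4 fell on each of these days. With the replicate block the day 16 count was 3, since GCV3 no longer passed (limma adjusted p = 0.0624). The genes that fell on day 20 were GCV1, GCV2 and GCV3, which encode subunits of the glycine cleavage complex, and SHM2, the cytosolic serine hydroxymethyltransferase. GCV1 (YDR019C) went from 2639 ± 289 (SD, n = 3) in the chemostat to 545 ± 116 (SD, n = 2). On the log2 scale this was -2.29 ± 0.25 (SE, limma adjusted p = 0.00107). GCV2 (YMR189W) differed by -2.20 ± 0.35 and SHM2 (YLR058C) by -1.84 ± 0.33 (limma adjusted p = 0.00505 and 0.00908). The count was 1 on day 9 without chemostat array 2 or 3 or the culture 1 array of day 9, and 1 on day 20 without either array of that day.

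Histidine synthesis, which shares an intermediate with the purine route, had 4 of 7 genes lower on day 9, 4 lower and 1 higher on day 16, and 3 lower on day 20. Of all genes 3.68%, 4.32% and 3.01% were called lower on these days, and 16.6% higher on day 16. The day 16 count was 3 without the 3 arrays, since HIS4 no longer passed (limma adjusted p = 0.0708). Those that fell on day 20 were HIS1 (YER055C), with -1.86 ± 0.25 (SE), HIS3 (YOR202W), with -1.81 ± 0.38, and HIS7 (YBR248C), with -1.50 ± 0.39 (limma adjusted p = 0.00270, 0.0172 and 0.0374). The HIS7 call was lost without the 3 arrays (limma adjusted p = 0.146), which left 2. The day 20 count was 1 without chemostat array 1 or 2 or the culture 1 array of day 20, and 0 without the culture 2 array of day 20. HIS6 was the gene called higher on day 16, and this call was lost without the 3 arrays (limma adjusted p = 0.232) and with the replicate block (limma adjusted p = 0.0533).

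The list for pyrimidine synthesis holds 11 genes, URA1 to URA8, URA10, the salvage gene FUR1 and the regulator PPR1. None of the 11 fell on any day, where 3.01% to 4.32% of all genes did so on days 9, 16 and 20. On day 20, 1 of the 11 was called higher, a share near the 10.5% of all genes. This gene, URA10 (YMR271C), the minor isozyme of orotate phosphoribosyltransferase, rose from 48.2 ± 2.26 (SD, n = 3) to 140 ± 3.39 (SD, n = 2) on day 20. On the log2 scale this was 1.54 ± 0.31 (SE, limma adjusted p = 0.0154). URA6 was called higher on day 16, and this call was lost without the 3 arrays (limma adjusted p = 0.195) and with the replicate block (limma adjusted p = 0.0663). The list median on day 20 was 0.12, against -0.59 for the 10 purine genes and 0.36 for all genes. Whether the purine genes and the pyrimidine list differ was not tested.

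**Figure D4:**
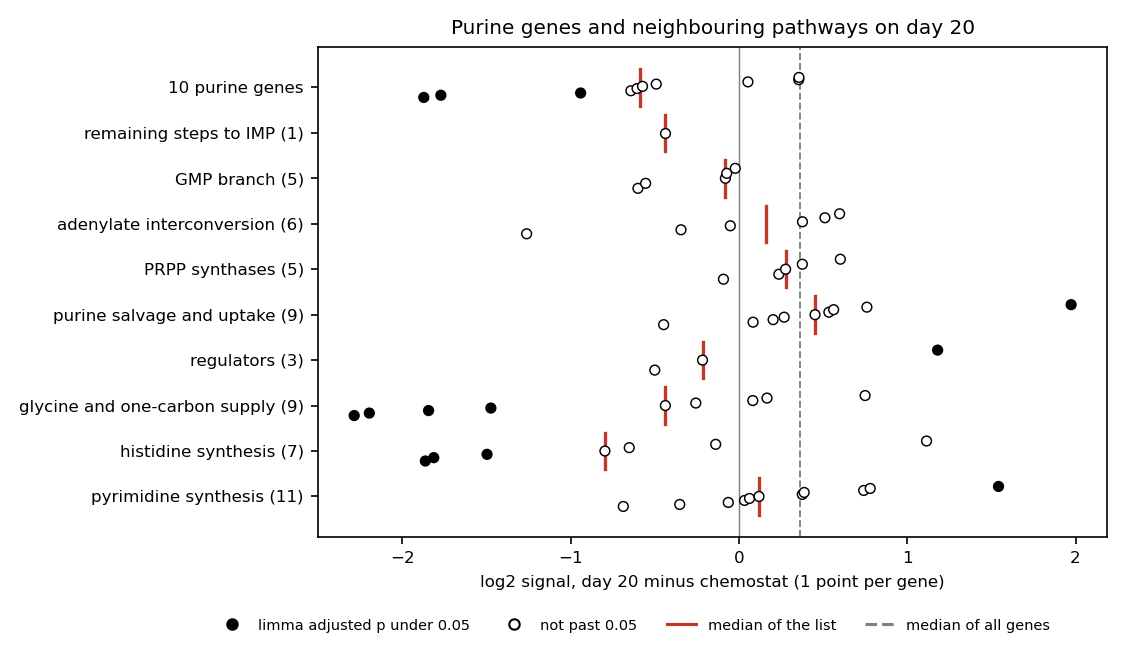
Log2 signal on day 20 minus the chemostat for the 10 purine genes and for genes of neighbouring pathways, with the number of genes in brackets. Each point is a gene (filled where the limma adjusted p was under 0.05), red bars are list medians and the dashed line is the median of all genes. The filled points on the left are 3 purine genes, 4 glycine and one-carbon genes and 3 histidine genes.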

How the data were processed

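The authors deposited linear probe-set intensity values, 1 per probe set and array, made with GCOS 1.2, per the submitters' processing notes. The sources used here do not state its settings. Signals under 12 were set to 12 and taken to log2. Of 9335 probe sets, 6504 were annotated to 1 gene and 328 to several. Symbols were updated from a RefSeq gene table. Of 5656 genes, 79 that never exceeded the floor were dropped. The tests used limma 3.58.1 (R 4.3.3, lmFit with eBayes on all 11 arrays, 1 mean per group, two-sided, 6 residual and 3.52 prior degrees of freedom). The fit was also run on simulated data, with independent noise on each array and changes only in genes brighter than ADE4. That run did not cover arrays that share a culture or have a high actin ratio.

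The members and the gene lists, from textbook knowledge, were chosen with earlier results of these data known. Of each list, up to 3 called genes with the largest day 20 difference (day 16 where none passed) were named, and ADE16 always. GCV3, HIS6, URA6, BAS1 and GCN4 were named after their values were seen.

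The labels give each retentostat array a replicate number, and arrays of the same number were taken to come from the same culture on all days. Deviations from the day means correlated across genes at 0.23 to 0.69 between retentostat days for the same number, and at -0.21 to 0.29 between the chemostat and the retentostat. Pairs with day 2 gave 0.23 to 0.44, and pairs among days 9, 16 and 20 gave 0.50 to 0.69. On these later days the culture 2 arrays had the high actin ratio, so culture and actin ratio cannot be told apart there. The series' design calls the cultures independent, whereas arrays of 1 retentostat culture on different days are not, and the number of arrays limits the precision. The 23 alternatives changed the scaling, floor, pseudocount, filter, probe-set choice, arrays in the fit, block, prior and arrays left out. The check of list counts and of the isozyme ratio under them was added after seeing the data. The replicate block fitted 1 level per replicate number, which ties chemostat arrays 1 and 2 to retentostat cultures 1 and 2. Number 3 occurs only in the chemostat, so under this block chemostat array 3 did not enter the differences.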

Additional observations from a re-analysis of the deposited data

How the results depend on the processing

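Under the 23 alternatives no called member changed direction. Of 1840 values of a member under an alternative, 64 had another sign than in the main setting, none of them a called value, and in each case at least one of both values was within 1 SE of 0, which was taken as no direction. The number of members called on day 16 was 3, and 6 under median scaling. On day 20 it was 3, and 5 with only the arrays of both groups in the fit. Leaving out 1 array at a time gave 3 to 5 members on day 9, 3 to 6 on day 16, 0 to 4 on day 20 and 2 to 4 in the F test. It gave 0 on day 2 and in each comparison between retentostat days. ADE4, ADE2 and ADE17 kept their calls on days 9 and 16 under all 23 alternatives, while on day 20 they kept 22, 15 and 21 of 23. With the replicate block 3, 3 and 2 members were called on days 9, 16 and 20, and beside ADE13 on day 9 and ADE2 on day 20 it changed no other call of a member. Over all genes the counts of 842, 1167 and 753 on days 9, 16 and 20 ran from 327 to 1089, 406 to 1757 and 50 to 1942, that of 636 in the F test from 156 to 1060, that of 1 on day 2 down to 0, that of 9 from day 2 to day 9 from 0 to 65, that of 33 from day 2 to day 20 from 0 to 149, and that of 0 from day 9 to day 16 up to 1. The share of higher calls on days 9, 16 and 20 was 75.7%, 79.3% and 77.7%, under quantile scaling 61.1%, 59.1% and 53.3%, and under median scaling 53.8%, 46.2% and 37.7%. From day 2 to day 20 it was 54.5%, and 29.8% under median scaling. The fall of the ADE17 to ADE16 log2 ratio was -1.48, and -1.58 to -1.29 under 14 alternatives. ADE4 at 24.3 to 43.7 late in the retentostat lies near the floor of 12, and with a floor of 32 its differences on days 9, 16 and 20 were -1.61, -1.51 and -1.67. The causes were not tested.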
